A study of Mus musculus with 9 samples.

Results

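The redox genes described here are 10 antioxidant and repair genes of mouse liver, chosen by their function and with earlier results of these data known, and they are 10 of the 27179 genes in the deposited count table. They are Msra and Msrb1 (methionine sulfoxide repair), Prdx1, Prdx5, Gpx1, Gpx4 and Cat (peroxide removal), Sod1 (superoxide removal), and Nqo1 and Hmox1 (targets of the transcription factor NRF2). All 10 were detected and all 10 passed the filter on low counts. Bulk RNA sequencing compared the livers of 2 groups of female mice that both lacked Apoe and were both fed a high-fat diet (HFD), begun at an age of 8 weeks and kept up for 12 weeks. The first group, Apoe-/- (5 libraries), still carried the gene for the cytokine MIF-2, and the second, Mif-2-/- Apoe-/- (4 libraries), lacked it as well. Both deletions were present in the whole animal, so the liver values do not separate hepatocytes from other cells that lost MIF-2. Each library was made by the Smart-seq2 protocol from the pooled lysates of a few frozen, OCT-embedded sections of the liver. The comparison asks how the liver transcriptome differs when MIF-2 is missing in the hyperlipidemic mouse. The redox genes were selected with this comparison in view, and their values are given as a description without a p-value.

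Liver cells produce superoxide and hydrogen peroxide in mitochondria, in peroxisomes and during oxidation of drugs and fatty acids. Superoxide dismutases turn superoxide into hydrogen peroxide, which catalase, glutathione peroxidases and peroxiredoxins then remove. Oxidized methionine in proteins is repaired by methionine sulfoxide reductases, of which the A type (Msra) acts on the S form and the B type (Msrb1 and its relatives) on the R form. Of these enzymes, the glutathione peroxidases, peroxiredoxins and methionine sulfoxide reductases draw their electrons from thioredoxin or glutathione and finally from NADPH. The transcription factor NRF2, held down by KEAP1, drives many of these genes through the antioxidant response element, a short DNA motif in their promoters and enhancers.

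Of the 10 genes, 3 encode selenoproteins, in which an in-frame TGA codon is read as selenocysteine, the residue that carries the catalytic site. The codon is shown for each of them because an mRNA of this kind depends on selenium and on the selenocysteine machinery described further below. The sequences come from the longest GENCODE M21 transcript with a single annotated in-frame TGA (GRCm38, all on the plus strand), written 5′ to 3′ with the selenocysteine codon in capitals.
Gpx1: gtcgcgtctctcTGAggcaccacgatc
Gpx4: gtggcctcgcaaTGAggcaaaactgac
Msrb1: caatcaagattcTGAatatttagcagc
The codon of Gpx1 lies at chr9:108339451-108339453 and is codon 47 of 201. In Gpx4 it lies at chr10:80054737-80054739 and is codon 129 of 253 in this transcript. In Msrb1 it lies at chr17:24740158-24740160 and is codon 95 of 116, close to the carboxyl end of the protein.

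The promoters were searched for the core of the antioxidant response element, TGACNNNGC, on both strands. The windows of RefSeq on GRCm38.p6 hold 250 bases before and 50 bases after each transcription start, and 8 of the 10 genes had at least 1 such window, 11 windows in all. Msra and Hmox1 had no entry. The core was present in 2 of the 11 windows, those of Prdx1 and Sod1, and in 12.4% of all 32851 windows. Nothing is read from so few windows, and sequence outside them was not searched. The specific form TGACTCAGC, which is the core with each N set to 1 letter, was present in the Prdx1 window and in 0.454% of all windows. Both windows are shown because the 2 genes share the core and differ in their values (see the levels given with peroxide and superoxide removal), with the core in capitals as it appears on the printed strand, where it reads as its reverse complement.
Prdx1: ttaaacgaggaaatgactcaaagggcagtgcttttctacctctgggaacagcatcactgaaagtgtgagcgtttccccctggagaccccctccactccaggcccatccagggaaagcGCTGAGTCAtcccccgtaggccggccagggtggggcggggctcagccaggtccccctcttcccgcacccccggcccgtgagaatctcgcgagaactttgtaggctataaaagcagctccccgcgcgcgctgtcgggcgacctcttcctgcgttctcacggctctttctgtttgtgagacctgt
Sod1: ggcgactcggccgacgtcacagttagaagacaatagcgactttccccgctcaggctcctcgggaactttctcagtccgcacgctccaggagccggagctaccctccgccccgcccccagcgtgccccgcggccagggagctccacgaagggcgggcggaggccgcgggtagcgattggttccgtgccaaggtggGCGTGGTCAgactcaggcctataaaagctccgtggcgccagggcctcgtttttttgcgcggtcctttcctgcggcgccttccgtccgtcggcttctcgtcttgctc
The Prdx1 window is chr4:116685349-116685648 and the Sod1 window chr16:90220512-90220811, both on the plus strand. A match in these letters is a description of the sequence, and no binding was measured.

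Total counts ranged from 2318148 to 10764182 per library. Ddt, which encodes MIF-2, ranged from 1205 to 4820 counts in Apoe-/- and from 6 to 27 counts in Mif-2-/- Apoe-/- libraries, which fits the labels. All 8 hepatocyte markers were detected in each genotype. Their summed level ranged from 64300 to 200000 normalized counts per 1e6 counts (CPM) in the Apoe-/- libraries and from 63800 to 197000 CPM in the Mif-2-/- Apoe-/- libraries. Most of the sum came from Alb, Apoa1 and Ttr, with means of 63000, 55400 and 17200 CPM in Apoe-/- and 44200, 51700 and 9680 CPM in Mif-2-/- Apoe-/- libraries. All of these are among the 10 most abundant genes, so the sum overlaps with the share of counts in those genes. The library Apoe-/- replicate 5 had the lowest hepatocyte marker sum (64300 CPM) and the lowest share of counts in the 10 most abundant genes (14.7%) of its group. The library Mif-2-/- Apoe-/- replicate 2 had the highest of both in its group (197000 CPM and 26.3%) and the lowest total count of all 9. Neither these measures, nor the total count, nor the marker sums of 7 other cell types passed a two-sided exact permutation test between the genotypes (10 measures, adjusted p of 0.59 or more). With 5 and 4 libraries the smallest p that this test can give is 0.00794. After adjustment over 10 measures, 1 measure that separated the genotypes fully could not pass 0.05 by itself. The test therefore cannot show that the libraries were alike in composition. Results that rest on these 2 libraries are given with and without them. The labels do not say that libraries of a group came from separate mice, and the paper gives fewer mice per group than there are Apoe-/- libraries, so these may not all be separate animals. Errors and p-values measure the spread between these libraries.

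Of the 10 redox genes, 9 had a higher fitted level in Apoe-/- than in Mif-2-/- Apoe-/- livers, and Nqo1 had a lower one. Their median log2 fold change (Apoe-/- over Mif-2-/- Apoe-/-) was 1.54, and that of the 16860 genes tested was -0.17. Abundant genes as a whole stood higher than rare ones, since the 3949 genes whose mean reached 40 CPM had a median of 0.12 and 55.7% of them lay above 0, compared with 43.5% of all genes tested. The edgeR quasi-likelihood test with Benjamini-Hochberg adjustment over all genes called 1 of the 10, Msra, where 0.130% of all genes were called in either direction and 0.0593% as higher in Apoe-/-. DESeq2 called 6 of the 10 as higher (Msra, Gpx1, Hmox1, Gpx4, Prdx1 and Prdx5), compared with 2.52% of the genes to which it gave an adjusted p-value. At an unadjusted edgeR p under 0.05, 7 of the 10 were higher, compared with 6.52% of all genes. In 4 genes (Msra, Gpx1, Gpx4 and Hmox1) the values of the genotypes did not overlap, compared with 2.24% of all genes. Nothing is read from these shares about the 10 genes, because they were chosen with this comparison known. In bulk samples, fewer cells of a type and less RNA per cell cannot be told apart. The plot of levels by library shows the values described in the following paragraphs.

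**Figure D1:**
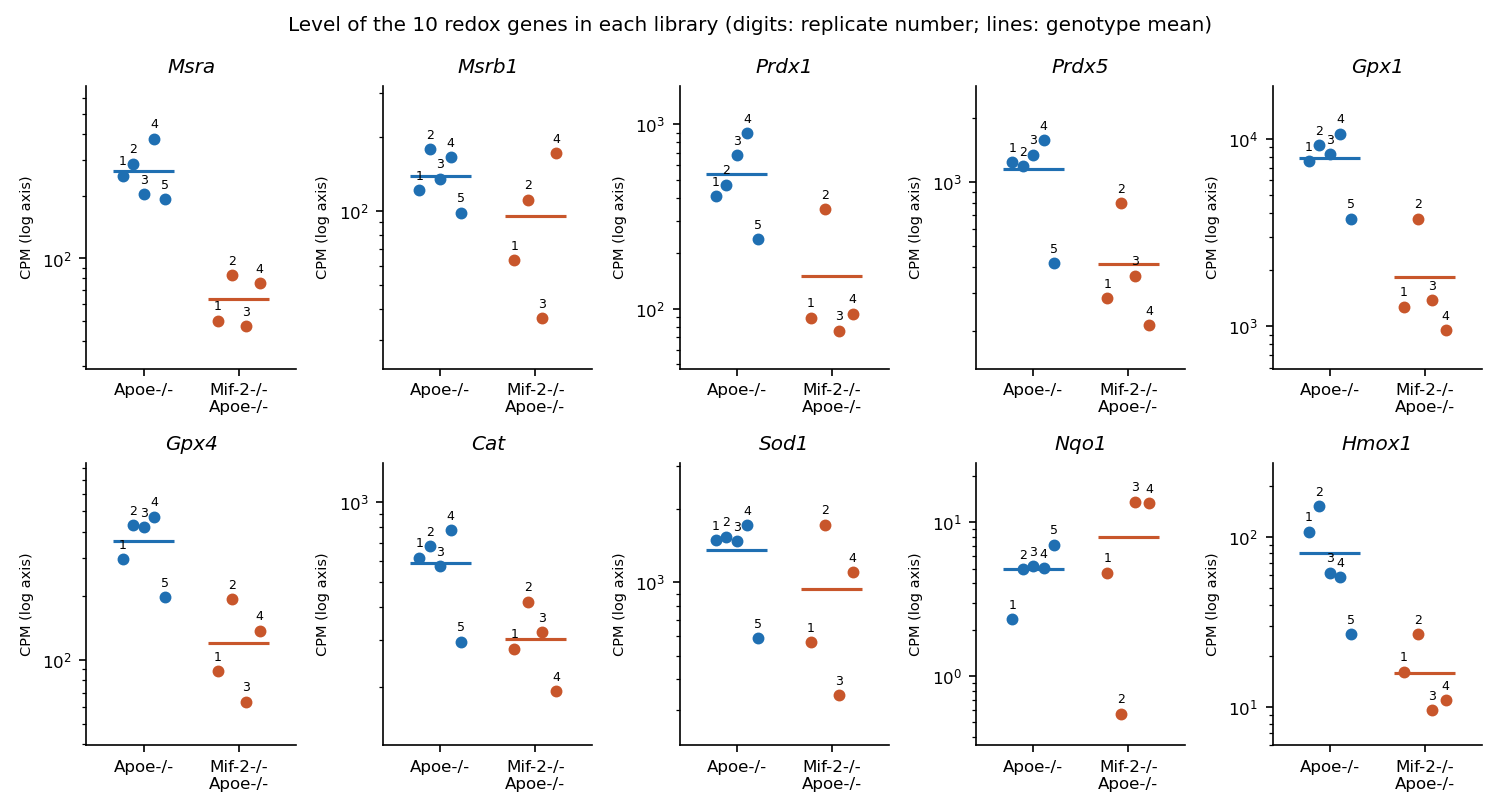
Level of each of the 10 redox genes in TMM-normalized CPM (log axis, own scale per gene) in 5 Apoe-/- libraries (blue) and 4 Mif-2-/- Apoe-/- libraries (orange), with the replicate number beside each point and a line at the genotype mean. Msra separates the genotypes with a clear gap (lowest Apoe-/- library 194 CPM, highest Mif-2-/- Apoe-/- library 82.9 CPM), while Apoe-/- replicate 5 and Mif-2-/- Apoe-/- replicate 2 meet or cross in most other genes.

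Methionine sulfoxide repair was represented by Msra and Msrb1. Msra (Entrez 110265) spans chr14:64122625-64455903 on the minus strand, with 5 annotated transcripts. It had 252, 288, 205, 380 and 194 CPM in the Apoe-/- libraries 1 to 5, and 50.0, 82.9, 46.9 and 75.7 CPM in the Mif-2-/- Apoe-/- libraries 1 to 4. The groups did not overlap, and the lowest Apoe-/- library was 2.34 times the highest Mif-2-/- Apoe-/- library. Means are given here and below as mean ± SD of the Apoe-/- and then of the Mif-2-/- Apoe-/- libraries, and for Msra they were 264 ± 75.0 and 63.9 ± 18.1 CPM, with n = 5 and n = 4 libraries, a 4.14-fold difference with a log2 fold change of 2.05 (SE 0.33). These levels rested on 436 to 2146 Msra counts in the Apoe-/- libraries and on 146 to 331 in the others. The gap was 2.35 times with RLE size factors, 2.24 times with TMMwsp and 2.28 times with plain total counts, and Msra separated the genotypes under each of these 4 scalings. The call by edgeR was less stable than the size. With each library left out in turn, the log2 fold change stayed between 1.92 and 2.29, and Msra was called in 2 of 9 fits, those without Apoe-/- replicate 5 and without Mif-2-/- Apoe-/- replicate 2. It was not called without Apoe-/- replicate 1, 2, 3 or 4, or without Mif-2-/- Apoe-/- replicate 1, 3 or 4.

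Msrb1 (Entrez 27361, chr17:24736642-24742778, plus strand), the cytosolic and nuclear selenoprotein that repairs the other stereoisomer, did not follow Msra. It had 121, 178, 135, 165 and 98.2 CPM in the Apoe-/- libraries and 63.2, 111, 36.8 and 171 CPM in the Mif-2-/- Apoe-/- libraries. The groups overlapped, since Mif-2-/- Apoe-/- replicate 4 reached the level of the highest Apoe-/- libraries. Msrb1 had a log2 fold change of 0.54 (SE 0.41), and it moved between 0.27 and 0.99 as single libraries were left out. The remaining reductases of this type, Msrb2 (mitochondrial) and Msrb3 (endoplasmic reticulum and mitochondria), were rare. Msrb2 had a mean of 12.3 ± 8.08 and 16.7 ± 9.0 CPM, and Msrb3 had 3.57 ± 2.59 and 5.99 ± 6.77 CPM. Their log2 fold changes were -0.45 (SE 0.67) and -0.75 (SE 0.98), neither called.

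Peroxide removal was represented by 5 genes, all with higher means in Apoe-/- livers and with log2 fold changes from 0.96 to 2.11. Gpx1 (Entrez 14775, chr9:108338903-108340343, plus strand) encodes the cytosolic selenium-dependent glutathione peroxidase and was the most abundant of the 10 genes. It had 7580, 9200, 8270, 10600 and 3730 CPM in the Apoe-/- libraries and 1270, 3730, 1370 and 950 CPM in the Mif-2-/- Apoe-/- libraries. The groups touched at Apoe-/- replicate 5 (3733.3 CPM) and Mif-2-/- Apoe-/- replicate 2 (3727.1 CPM), and the other libraries lay far apart. The means were 7890 ± 2590 and 1830 ± 1280 CPM, a log2 fold change of 2.11 (SE 0.46). Without these 2 libraries it was 3.0 (SE 0.26).

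Gpx4 (Entrez 625249, chr10:80047166-80056439, plus strand) reduces lipid hydroperoxides in membranes and is the enzyme that holds off ferroptosis. It had 297, 431, 420, 471 and 197 CPM in the Apoe-/- libraries and 88.3, 193, 63.5 and 137 CPM in the Mif-2-/- Apoe-/- libraries. The same 2 libraries lay closest, at 196.5 and 192.52 CPM. Over all libraries the genotypes differed by a log2 fold change of 1.6 (SE 0.39), and 2.17 (SE 0.34) without them. RefSeq lists the pseudogenes Gpx4-ps1 and Gpx4-ps2, as well as Prdx1-ps for Prdx1, and how reads shared with such copies were counted is not given in the sources used here, so the levels of Gpx4 and Prdx1 carry that uncertainty.

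Prdx1 (Entrez 18477, chr4:116685544-116700822, plus strand), a cytosolic peroxiredoxin reduced by thioredoxin, had 409, 470, 680, 898 and 239 CPM in the Apoe-/- libraries. In the Mif-2-/- Apoe-/- libraries it had 89.3, 346, 75.8 and 94.0 CPM. Replicate 2 stood apart and overlapped with Apoe-/- replicate 5, and the other 3 lay below each Apoe-/- library. Prdx1 had a log2 fold change of 1.84 (SE 0.51), and 2.93 (SE 0.34) without the 2 libraries. Prdx5 (Entrez 54683, chr19:6906697-6910106, minus strand), a peroxiredoxin of mitochondria, peroxisomes and cytosol, had 1240, 1190, 1350, 1580 and 416 CPM against 285, 796, 363 and 212 CPM. Here Apoe-/- replicate 5 fell between the Mif-2-/- Apoe-/- libraries. Prdx5 had a log2 fold change of 1.48 (SE 0.45), and 2.32 (SE 0.28) without the 2 libraries. An opposite-strand gene, Trmt112, shares 409 exonic bases with Prdx5 (19.1% of its exonic length), and the protocol does not mark the strand. Trmt112 itself was counted at means of 56.0 and 53.7 CPM, both far below those of Prdx5.

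Cat (Entrez 12359, chr2:103453849-103485160, minus strand), the catalase of peroxisomes, had 614, 679, 572, 782 and 296 CPM in the Apoe-/- libraries and 279, 419, 322 and 193 CPM in the others. The groups overlapped through Apoe-/- replicate 5, and the 4 others of that genotype were all higher than the highest Mif-2-/- Apoe-/- library. Between genotypes the log2 fold change was 0.96 (SE 0.34), the smallest of the 5 peroxide-removing genes.

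Sod1 (Entrez 20655, chr16:90220754-90226329, plus strand), the copper and zinc superoxide dismutase of the cytosol, had 1490, 1540, 1470, 1710 and 590 CPM in the Apoe-/- libraries. The Mif-2-/- Apoe-/- libraries had 568, 1720, 345 and 1100 CPM and ranged over most of the same scale. The 4 Apoe-/- libraries other than replicate 5 were nearly equal, whereas the Mif-2-/- Apoe-/- libraries spread widely. Sod1 had a log2 fold change of 0.54 (SE 0.45), and 1.31 (SE 0.34) without the 2 libraries. With the share of the 10 most abundant genes as a covariate it was 0.09 (SE 0.27).

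The NRF2-driven genes Hmox1 and Nqo1 differed strongly in abundance. Hmox1 (Entrez 15368, chr8:75093621-75100589, plus strand), the inducible heme oxygenase that splits heme into biliverdin, iron and carbon monoxide, is made in hepatocytes and in macrophages that take up red cells. It had 107, 152, 61.5, 57.9 and 26.7 CPM in the Apoe-/- libraries and 16.1, 26.7, 9.57 and 11 CPM in the Mif-2-/- Apoe-/- libraries. The groups met at Apoe-/- replicate 5 (26.716 CPM) and Mif-2-/- Apoe-/- replicate 2 (26.691 CPM), a gap smaller than 1 count in the latter library, where 1 count equalled 0.568 CPM. Over all libraries, Hmox1 had a log2 fold change of 2.37 (SE 0.54), the largest of the 10 genes, and 3.05 (SE 0.49) without the 2 libraries. The summed level of 7 Kupffer cell and macrophage markers was between 838 and 1850 CPM in the Apoe-/- libraries and between 927 and 1380 CPM in the others, and that of 4 erythroid genes was between 99.5 and 320 CPM and between 59.6 and 218 CPM. The macrophage sum was mostly Clec4f, with means of 835 and 852 CPM, and single markers behaved differently. Cd5l had means of 470 and 205 CPM, a log2 fold change of 1.20 (SE 0.38), and was called by DESeq2 but not by edgeR, and Adgre1 had 1.62 (SE 0.97) and was called by neither. The log2 fold changes of the other 5 markers lay between -0.17 (Vsig4) and 0.39 (Marco). Among the erythroid genes, Hba-a2 had 1.28 (SE 0.53), Hba-a1 1.03 (SE 0.65), Hbb-bs 0.15 (SE 0.84) and Alas2 -0.04 (SE 0.47), none called by either tool. None of the macrophage and erythroid markers had a mean below 1 CPM, and the part of these cells in the Hmox1 values was not tested.

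Nqo1 (Entrez 18104, chr8:107388225-107403206, minus strand), a quinone reductase and a common readout of NRF2 activity, was the only one of the 10 genes with a higher mean in Mif-2-/- Apoe-/- livers. It was rare. The counts of the 5 Apoe-/- libraries were 17, 37, 11, 25 and 37, and those of the 4 others were 23, 1, 54 and 58. These gave 2.33, 4.96, 5.16, 5.04 and 7.16 CPM against 4.68, 0.568, 13.6 and 13.3 CPM. The Mif-2-/- Apoe-/- libraries spanned the whole range, from the lowest value of all in replicate 2 to the highest in replicate 3. The fitted log2 fold change was -0.71 (SE 0.91), smaller than its error, and 0.12 (SE 1.12) with the share of the 10 most abundant genes as a covariate.

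Most of the redox genes ranked the libraries of a genotype in a similar way. Apoe-/- replicate 5 was the lowest of its group in 9 of the 10 genes, Nqo1 being the exception, and Apoe-/- replicate 4 was the highest in 7. Mif-2-/- Apoe-/- replicate 2 was the highest of its group in 8 of the 10 genes, with Msrb1 and Nqo1 as exceptions, and replicate 3 was the lowest in 6. Apoe-/- replicate 5 and Mif-2-/- Apoe-/- replicate 2 are the libraries that also stood apart in the hepatocyte marker sum and in the share of abundant genes. These measures overlap through Alb, Apoa1 and Ttr. The median difference from the mean over all 9 libraries was -0.14 on the log2 scale in Apoe-/- replicate 5 and between 0.59 and 1.04 in the other Apoe-/- libraries. It was 0.00 in Mif-2-/- Apoe-/- replicate 2 and between -1.54 and -0.98 in the other 3.

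**Figure D2:**
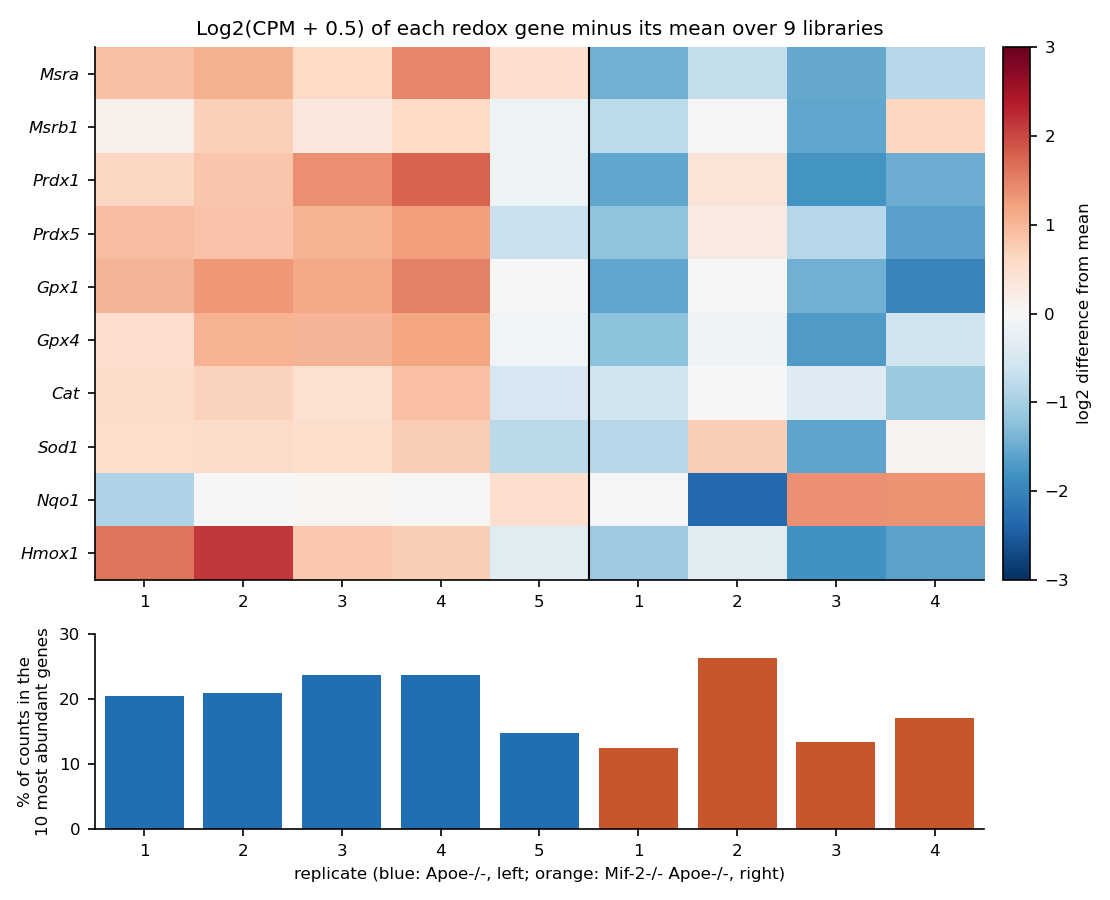
Upper panel, difference of log2(CPM + 0.5) of each redox gene from its mean over the 9 libraries (red higher, blue lower; Apoe-/- replicates 1 to 5 left of the line, Mif-2-/- Apoe-/- replicates 1 to 4 right of it). Lower panel, share of counts in the 10 most abundant genes of each library in percent, which is lowest among the Apoe-/- libraries in replicate 5 (14.7%) and highest among the Mif-2-/- Apoe-/- libraries in replicate 2 (26.3%), the 2 libraries whose columns are nearest to 0 for most genes above.

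Fits of the same counts with different libraries or terms are set side by side to show how far the values rest on these libraries. Without Apoe-/- replicate 5 and Mif-2-/- Apoe-/- replicate 2, a choice made after seeing the data, the median log2 fold change of the 10 genes was 2.25 (that of all genes -0.21) and edgeR called 8 of the 10, with Msrb1 and Nqo1 as exceptions, where it called 8.71% of all genes. The hepatocyte marker sums no longer overlapped in that subset, at 142000 to 200000 CPM in the 4 Apoe-/- and 63800 to 92600 CPM in the 3 Mif-2-/- Apoe-/- libraries. Of the 5 hepatocyte markers among the tested genes, Fgb had a log2 fold change of 1.75, Serpina1c of 1.67, Cyp2e1 of 1.32, Hnf4a of 0.31 and Cps1 of 0.06 there. The larger redox values of this subset therefore came together with higher levels of some hepatocyte transcripts, whose part in them was not tested. With all 9 libraries and the share of the 10 most abundant genes as a covariate, the median was 1.1 and edgeR called 2 of the 10, Msra and Gpx1, and 0.125% of all genes. Msra changed least between the fits in relation to its size, at 2.05 (SE 0.33), 2.39 (SE 0.35) and 1.82 (SE 0.29). Gpx1 had 2.11 (SE 0.46), 3.0 (SE 0.26) and 1.72 (SE 0.29). Among the 10 redox genes, the number without overlap was 4 with TMM, with RLE and with total counts, and 1 (Msra) with TMMwsp. The separation of Gpx1, Gpx4 and Hmox1 therefore depended on the scaling. The share of all genes that were higher in Apoe-/- without overlap, 2.24%, was computed with TMM only.

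**Figure D3:**
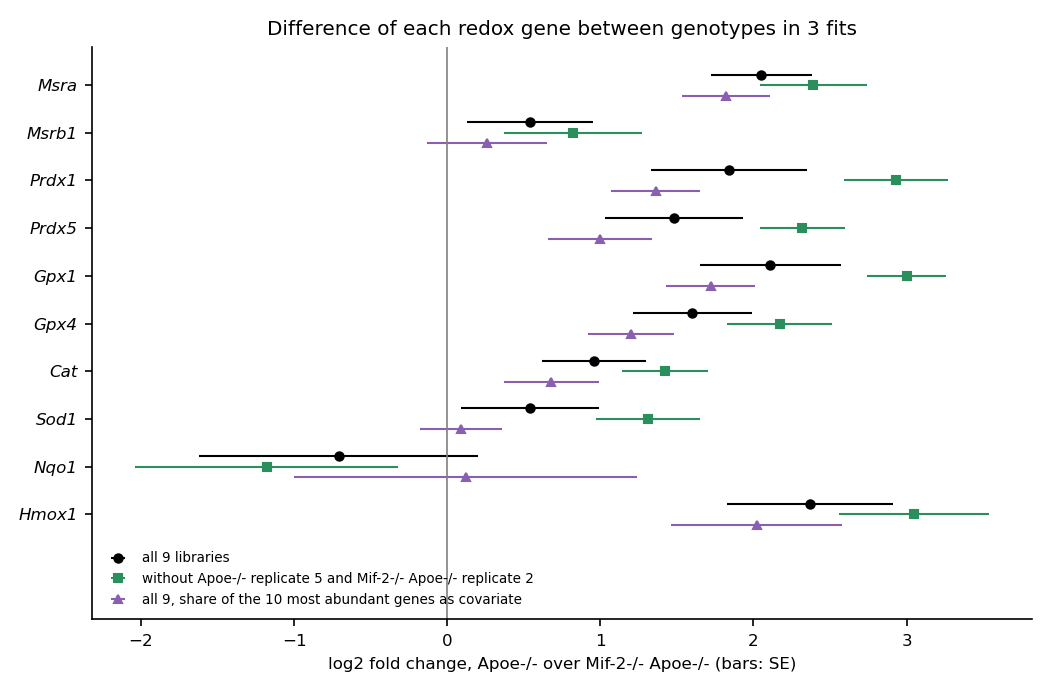
Log2 fold change of each redox gene, Apoe-/- over Mif-2-/- Apoe-/-, with its standard error, in the fit of all 9 libraries (black circles), without Apoe-/- replicate 5 and Mif-2-/- Apoe-/- replicate 2 (green squares), and in the fit with the share of the 10 most abundant genes as a covariate (purple triangles). In 9 of the 10 genes the green value is the highest of the 3, and Nqo1 is the only gene on both sides of 0.

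Ratios within a library do not depend on its scaling, and the genes were therefore also expressed per Msra count. Because Msra itself differed between the genotypes, 34.7% of all genes tested had a lower ratio in each Apoe-/- than in each Mif-2-/- Apoe-/- library, and nothing particular to a redox gene is read from such a ratio. Among the 9 other redox genes it was so for Msrb1 and Sod1. Gpx1, in contrast, stood at 29.9 ± 7.63 and 28.0 ± 13.3 counts per Msra count (SD, n = 5 and n = 4), with overlap. A ratio shows unequal change of its 2 genes and does not tell which of them changed.

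To compare genes with each other, CPM was divided by the length of all annotated exons of a gene in kilobases. On this scale of levels, Gpx1 stood far above the rest with 5480 CPM per kilobase in the Apoe-/- group and 1270 in the other. Prdx5 followed with 542 and 194 CPM per kilobase. Sod1 came next with 343 and 236 CPM per kilobase in the mean of the genotypes, and in Mif-2-/- Apoe-/- livers it lay above Prdx5. Cat (225 and 116), Gpx4 (211 and 69.6) and Prdx1 (177 and 49.6 CPM per kilobase) formed a middle group. Msrb1 had 110 and 76.0 CPM per kilobase, Msra 61.5 and 14.9, and Hmox1 46.2 and 9.02, with Nqo1 last at 3.17 and 5.17 CPM per kilobase. Neighbours within the middle group were closer than the spread of their libraries, and Msra and Hmox1 in Apoe-/- livers were likewise within that spread. The exonic length sums all annotated transcripts, and a gene that uses a short transcript is understated.

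The wider redox system was described by 79 further genes in 11 groups, listed by function and with earlier results of these data known, of which 78 were tested. Gpx2, with at most 4 counts in any library, was not. Among the 78 genes, 53 had a higher and 25 a lower fitted level in Apoe-/- livers, with a median log2 fold change of 0.59. The edgeR test called 0 of them. At an unadjusted edgeR p under 0.05, 24 were higher and 2 lower, where 6.52% of all genes were higher and 8.99% lower. DESeq2 called 12 as higher and 0 as lower, and gave no adjusted p-value for 4. Of all genes to which it gave an adjusted p-value, it called 2.52% as higher and 2.75% as lower. The genotypes did not overlap in 9 genes that were higher and in 2 that were lower in Apoe-/-. Among all genes tested these shares were 2.24% and 2.03%. Without the 2 libraries named above, edgeR called 25 of the genes and the median was 1.03, in a fit that called 8.71% of all genes with a median of -0.21. The 12 genes called by DESeq2, named here after their values were seen, were Prdx6, Sqstm1, Ephx1, Osgin1, Tkt, Blvrb, Fth1, Ftl1, Selenow, Selenof, Selenos and Dio1.

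Within the peroxiredoxin group, 5 genes had values above 0 and 3 below. The peroxiredoxins Prdx2, Prdx3, Prdx4 and Prdx6 and the sulfiredoxin Srxn1, which restores overoxidized peroxiredoxins, had log2 fold changes between 0.82 and 1.0. Prdx6, the peroxiredoxin that uses glutathione, had 542 ± 145 and 281 ± 73.4 CPM, with a log2 fold change of 0.95 (SE 0.32). Prdx2 had 331 ± 130 and 188 ± 86.6 CPM. The sestrins Sesn1, Sesn2 and Sesn3, stress-induced genes that act on mTORC1 signalling, had values of -1.35 (SE 0.83), -2.25 (SE 1.23) and -0.54 (SE 1.16), none called. The value of Sesn2 rested on Mif-2-/- Apoe-/- replicate 3 with 37.8 CPM, as the other libraries of that genotype had between 0.00 and 4.88 CPM. The 3 tested glutathione peroxidases other than Gpx1 and Gpx4 had values below 0. Gpx3, the secreted enzyme of plasma, had 94.0 ± 23.8 and 108 ± 22.9 CPM, and Gpx7 had 6.99 ± 4.04 and 16.6 ± 13.7 CPM. Their log2 fold changes were -0.20 (SE 0.31) and -1.24 (SE 0.83).

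Among the superoxide dismutases, Sod2 of mitochondria had 247 ± 132 and 146 ± 93.8 CPM, and Ccs, the copper chaperone of Sod1, had 1110 ± 366 and 759 ± 111 CPM. All 3 of this group had values between 0.55 and 0.76 and overlapped, and 0 were called by edgeR, by DESeq2 or at an unadjusted edgeR p under 0.05. In the thioredoxin and glutaredoxin group, 7 genes lay above and 4 below 0, with a median of 0.24. Txn1, the thioredoxin that reduces Prdx1 and Msra, had 333, 337, 485, 522 and 107 CPM in the Apoe-/- libraries and 97.6, 493, 48.9 and 88.5 CPM in the others. Its pattern over the libraries followed that of Prdx1, with replicate 5 low and replicate 2 high in their groups. The log2 fold change of Txn1 was 0.98 (SE 0.61), and 2.52 without the 2 libraries. Mitochondrial Txn2 had a log2 fold change of 0.79 (SE 0.32).

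The supply of glutathione and NADPH had mostly higher values in Apoe-/- livers. In glutathione synthesis and recycling, 7 of 8 genes lay above 0, with a median of 0.80. Gclc, the catalytic subunit of the rate-limiting enzyme of glutathione synthesis, had 109, 98.9, 139, 133 and 94.3 CPM in the Apoe-/- libraries and 79.3, 76.7, 38.8 and 30.2 CPM in the others. The groups did not overlap, and the log2 fold change was 1.03 (SE 0.36), not called by either tool. Gss, the second enzyme of that pathway, had a log2 fold change of 0.72 (SE 0.34) with overlap. All 6 genes of NADPH supply lay above 0, with a median of 0.98. DESeq2 called 1 of them, the pentose phosphate enzyme Tkt, where 2.52% of all genes with an adjusted p-value were called higher. Tkt had 588 ± 118 and 291 ± 127 CPM, and Taldo1 of the same pathway had 485 ± 156 and 236 ± 81.8 CPM.

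Genes of heme breakdown and iron storage, the pathway downstream of Hmox1, included 3 of the 12 calls of DESeq2. Of all genes with an adjusted p-value, DESeq2 called 2.52% as higher. Blvrb, which encodes biliverdin reductase B, was called by DESeq2 with a log2 fold change of 1.77 (SE 0.41). In Blvrb, 2 libraries of different genotype crossed (416 CPM in Apoe-/- replicate 5 and 471 CPM in Mif-2-/- Apoe-/- replicate 2). Blvra, which encodes biliverdin reductase A, had a log2 fold change of 0.28 (SE 0.66), with overlap, and was called by neither tool. Fth1, the heavy chain of ferritin, had 2240, 2580, 2390, 3290 and 1720 CPM in the Apoe-/- libraries and 826, 1400, 854 and 941 CPM in the others, without overlap. Ftl1, the light chain, had 5980, 6740, 7420, 9880 and 5270 CPM against 2570, 4050, 3020 and 1770 CPM, also without overlap. The 2 ferritin chains had nearly the same log2 fold change, 1.28 (SE 0.31) and 1.31 (SE 0.34), and both belong to families with processed pseudogenes whose reads may have been counted with them. Hmox2, the constitutive heme oxygenase, had 19.5 ± 7.20 and 30.1 ± 7.35 CPM, a log2 fold change of -0.63 (SE 0.47).

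Regulators and targets of the NRF2 pathway were listed separately, and the edgeR test called 0 of either. At an unadjusted p under 0.05 it gave 1 higher and 1 lower regulator and 5 higher targets. Of all genes, 6.52% were higher and 8.99% lower at that threshold. The lists were made with earlier results known, so nothing is read from these counts. Of the 9 regulators, 4 lay above and 5 below 0, with a median of -0.40. Nfe2l2, which encodes NRF2, had 75.9 ± 36.2 and 99.9 ± 90.6 CPM. Keap1, its repressor, had a log2 fold change of 0.38 (SE 0.31), and Nfe2l1, a related factor, of 0.35 (SE 0.36). Sqstm1, an autophagy receptor that binds KEAP1, had 197, 257, 288, 456 and 218 CPM in the Apoe-/- libraries and 150, 173, 110 and 122 CPM in the others, without overlap, and was called by DESeq2. Mafg was the lower regulator at an unadjusted p under 0.05, with a log2 fold change of -0.84 (SE 0.36). Cul3, with means of 2.39 and 8.76 CPM, was lower without overlap, at -1.86 (SE 0.88). Neither Mafg nor Cul3 was called by either tool. Of the 8 conjugating and reducing targets, 7 lay above 0, with a median of 1.21. DESeq2 called Ephx1 and Osgin1, where 2.52% of all genes with an adjusted p-value were called higher. Osgin1, which is induced by oxidative stress, had 1170, 1210, 1760, 2350 and 3600 CPM in the Apoe-/- libraries and 498, 575, 887 and 323 CPM in the others. The groups did not overlap, and Apoe-/- replicate 5, the lowest of its group in 9 of the 10 redox genes, was the highest here. Osgin1 had a log2 fold change of 1.82 (SE 0.42). Gstm1, a glutathione transferase, had 4660 ± 1770 and 2280 ± 1580 CPM, with a log2 fold change of 1.03 (SE 0.44), and reads that match its close paralogs could be counted with it.

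Selenoproteins were followed as a class because 3 of the 10 redox genes belong to it. Over both lists, 18 selenoprotein genes were tested, of which 14 lay above 0, with a median log2 fold change of 0.91. DESeq2 called 6 as higher (Gpx1, Gpx4, Dio1, Selenow, Selenof and Selenos), compared with 2.52% of the genes to which it gave an adjusted p-value. Gpx1 and Gpx4 belong to the 10 redox genes, which were chosen with this comparison known. Dio1, which activates thyroid hormone, had 224, 292, 121, 244 and 93.5 CPM in the Apoe-/- libraries and 53.9, 52.8, 19.1 and 58.3 CPM in the others, without overlap. The log2 fold change of Dio1 was 2.08 (SE 0.44), and Mif-2-/- Apoe-/- replicate 2 was not the highest of its group. Selenow had 324, 301, 475, 436 and 158 CPM against 70.8, 162, 102 and 74.5 CPM, with overlap of the 2 libraries named above and a log2 fold change of 1.73 (SE 0.38). Selenok, with Sephs2 the most abundant of its group, had 335 ± 139 and 162 ± 80.6 CPM, with overlap. The log2 fold change of Selenok was 1.05 (SE 0.42), and it was called by neither tool. The factors that make and insert selenocysteine had values nearer to 0 or below it. Sephs2, which makes the selenium donor and is itself a selenoprotein, had a log2 fold change of 0.48 (SE 0.38), Eefsec of 0.17 (SE 0.34) and Secisbp2, which binds the insertion element in the mRNA, of -0.71 (SE 0.38). Secisbp2 had 53.6, 48.8, 28.6, 19.6 and 41.2 CPM in the Apoe-/- libraries and 57.5, 57.9, 67.5 and 68.1 CPM in the others, so each Apoe-/- library lay below each Mif-2-/- Apoe-/- library. The selenoproteins Selenoo and Txnrd3 had values below 0, at -1.06 (SE 0.48) and -1.46 (SE 0.75). Selenoh and Gpx3 were also below 0, at -0.69 (SE 0.78) and -0.20 (SE 0.31), and none of these was called.

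**Figure D4:**
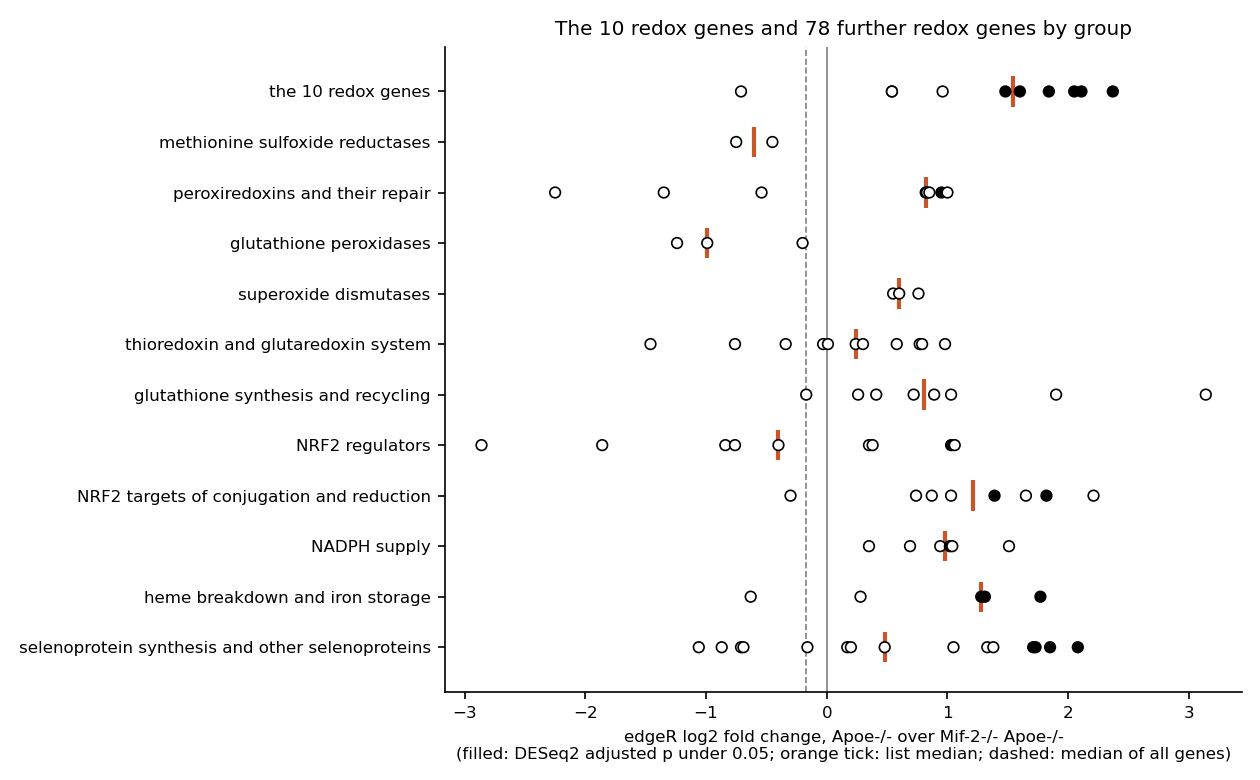
Log2 fold change (edgeR, Apoe-/- over Mif-2-/- Apoe-/-) of the 10 redox genes and of 78 further redox genes in 11 groups. Filled points have a DESeq2 adjusted p-value under 0.05, orange ticks mark the median of a group (1.54 for the 10 genes, 1.28 for heme breakdown and iron storage, -0.40 for the NRF2 regulators), and the dashed line marks the median of all genes tested (-0.17).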

How the data were processed

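Bulk RNA sequencing was done on frozen liver sections from Apoe-/- (5 libraries) and Mif-2-/- Apoe-/- (4 libraries) female mice after 12 weeks of HFD. RNA was purified with oligo-dT beads, and the Smart-seq2 protocol, which does not mark the strand, was used. The authors used FastQC for quality control, cutadapt for trimming and HISAT2 for alignment (mm10 per the submitters' processing notes, versions and counting program not given in the sources used here) and deposited whole-number counts on exons per Entrez gene without normalization. A line without an identifier, a second header, was left out. Symbols were matched to 25275 of 27179 identifiers through RefSeq names of GRCm38.p6. Positions and exonic lengths came from GENCODE M21 on GRCm38, the build of mm10. Promoters came from RefSeq on GRCm38.p6.

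A gene was tested if 3 or more libraries of 1 genotype had a count of 1 or more, unless it was among the 10 genes of highest mean CPM. For these 16860 genes, R 4.3.3 and edgeR 4.0.16 gave TMM factors, quasi-likelihood F tests and Benjamini-Hochberg adjusted p-values. SE is the absolute value of a log2 fold change over the root of its F. CPM is TMM-normalized. DESeq2 1.42.0 on all genes with a count was an alternative, and 9102 genes without an adjusted p-value were left out of its counts. Marker sums, the total count and the share of the 10 most abundant genes were compared by two-sided exact permutation tests. Figures were drawn with Python 3.11.15 and matplotlib 3.10.9.

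The 10 genes and the lists were chosen with earlier results of these data known. The genes named from the wider list are the 2 of highest mean CPM in each group and any called, and others were named after their values were seen. The alternatives were RLE and TMMwsp size factors, no filter or filterByExpr, the 10 top genes kept, mitochondrial, rRNA, Gm and Rik genes removed, a replicate block, DESeq2, a covariate for the share of the 10 top genes, total-count CPM for the marker sums, and each library left out. The fit without 2 libraries and the overlap of the groups under other scalings were added after seeing the data. Total counts ranged from 2318148 to 10764182 per library; their precision for a rare gene is shown by its counts. Liver lysates were not analysed here.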

Additional observations from a re-analysis of the deposited data

Results flagged for a closer look

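Each of the 10 redox genes and of the marker and depth measures was examined for a library that stands apart within its genotype. Dixon's test on log2 values was used at its 95% critical value, which flags about 1 in 20 groups by chance. Of 40 groups examined, 3 had such a library, not far above that rate. The groups share the same libraries and are not independent. Prdx1 in Mif-2-/- Apoe-/- replicate 2 was 346 CPM, compared with 75.8 to 94.0 CPM in the other 3 libraries of that genotype. Prdx5 in Apoe-/- replicate 5 was 416 CPM, compared with 1190 to 1580 CPM in the other 4. Sod1 in Apoe-/- replicate 5 was 590 CPM, compared with 1470 to 1710 CPM in the other 4. These are the 2 libraries with the lowest share of abundant genes in Apoe-/- (14.7%) and the highest in Mif-2-/- Apoe-/- livers (26.3%), and the part of that share in the 3 values was not tested beyond the fit with it as a covariate.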

How the results depend on the processing

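The median log2 fold change of the 10 redox genes was above 0 under each alternative, and that of the wider list too. Without Apoe-/- replicate 5 and Mif-2-/- Apoe-/- replicate 2, a choice made after seeing the data, the medians were 2.25 and 1.03. With each library left out, they lay between 1.40 and 2.06 for the 10 genes and between 0.47 and 0.90 for the wider list. The number of calls depended much more on the fit. Of all genes, edgeR called 22, DESeq2 739, the fit without the 2 libraries 1345, and the fits with a library left out from 9 to 262 (126 without Apoe-/- replicate 5 and 262 without Mif-2-/- Apoe-/- replicate 2). Of the 10 genes, edgeR called 1, DESeq2 6, the covariate fit 2, the fit without the 2 libraries 8, and the fits with a library left out from 0 to 6. Of the wider list, edgeR called 0, DESeq2 12, the fit without the 2 libraries 25, and the fits with a library left out from 0 to 8. The cause of these differences was not tested. The deviations of same-numbered libraries correlated at 0.12, 0.01, 0.06 and -0.01, and 1 of 4 numbers matched best with its own pair. These values gave no sign of pairing by replicate number, but with 4 numbers they cannot exclude it. With the number as a replicate block, edgeR called 560 of all genes, 6 of the 10 and 11 of the wider list. Only Apoe-/- has a replicate 5, so that library had a block of its own and added nothing to the estimated genotype difference in this fit. The genotypes did not overlap in 4 of the 10 genes with TMM, RLE and total counts and in 1 with TMMwsp. The matching share of all genes, 2.24%, was computed with TMM only. The median of all genes was -0.17 with TMM and 0.00 with TMMwsp, so values are best read against it. The share of calls that were higher in Apoe-/- was 45.5% with TMM, 55.6% with RLE and 60.0% with TMMwsp. Among the 10 genes and the 22 genes of the wider list that were named by abundance, the ones recomputed under each alternative, the sign turned for Nqo1 with the covariate (0.12), for Gpx3 without the 2 libraries (0.17) and, among the fits with a library left out (-0.27 to 0.05), without Mif-2-/- Apoe-/- replicate 2, and for Msrb3 (-1.29 to 0.45) without Mif-2-/- Apoe-/- replicate 3. None of these was called. With total-count CPM the differences of the cholangiocyte, Kupffer cell and sinusoidal endothelium sums turned to -0.23, -0.01 and -0.12 on the log2 scale. With a library left out, the sums ranged from -0.30 to 0.33 for cholangiocytes, -0.12 to 0.41 for sinusoidal endothelium and -0.32 to 0.04 for stellate cells. Depth limits rare genes such as Nqo1, Msrb3, Sesn3 and Gpx2.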
